A study of Schizosaccharomyces pombe with 6 samples.

Results

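The genes for the proteins of the cytosolic ribosome were examined for the binding of RPA in fission yeast (Schizosaccharomyces pombe) held in hydroxyurea (HU). They were taken from the RefSeq annotation of assembly ASM294v3 as the genes whose symbol is rpl, rps or rpp followed by a digit, on chromosome I below position 3700000, on chromosome II or on chromosome III, with at least 2 array probes centred inside the gene. Of 141 such symbols in the nuclear genome, 18 lay on chromosome I beyond that position, 26 held 1 probe and 3 held 0 probes. This left 94 of the 8192 annotated genes that held at least 2 probes. Among the 94, rpp1, rpp21, rpp40 and rpl701 are annotated as subunits of RNase P or RNase MRP, enzymes that process other RNAs, and they were set aside. The annotation also calls rpl701 ribosomal protein L7-like. The remaining 90 ribosomal protein genes comprised 54 of the large subunit, 5 of them for proteins of its stalk, and 36 of the small subunit. Of these 90 genes, 44 were covered by 2 probes, 33 by 3 probes and 13 by 4 or more, up to 11.

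The arrays compared DNA recovered with RPA (IP) with input DNA in cdc25-22 rad3∆ cells and in cdc25-22 cells, with 3 arrays of each strain. The labels call the second strain WT, and the name is kept here although the strain carries the cdc25-22 allele, a temperature-sensitive form of the phosphatase that starts mitosis. The rad3 gene encodes the checkpoint kinase of the ATR family, and rad3∆ cells lack it. Cells of both strains were grown at 25 °C, arrested for 4 h at 36.5 °C, released at 25 °C and given 6 mM HU, a drug that starves cells of deoxyribonucleotides. The sample titles add the number 60 without a unit. The input channel of rad3∆ replicate 3 is labelled cdc25-23, and that array was kept in its group. The labels list the molecule as total RNA, and reading both channels as DNA is an assumption behind every value. They do not say whether replicates were separate cultures, so the p-values measure the spread between these arrays, which may be technical.

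RPA is the heterotrimer that coats single-stranded DNA, and Ssb1, the precipitated subunit, is its largest chain. It gathers where replication forks stall and also where DNA is opened during repair. Ribosomal protein genes are short, are among the most strongly transcribed genes of a growing yeast cell, and in fission yeast are often present in several copies that encode nearly the same protein. Most of their promoters carry HomolD, an element that takes the place of a TATA box near the start site, and some carry HomolE upstream of it.

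The promoters of the 4 genes with the highest and the 2 genes with the lowest RPA signal over the gene body are shown so that both ends of the range can be compared. Each line gives the 150 bases before the annotated gene start, read 5′ to 3′ in the direction of transcription from the RefSeq sequence of ASM294v3, and capitals mark HomolD or its 7-base core and HomolE.
rpl3802, chrI:1097280-1097429, strand -: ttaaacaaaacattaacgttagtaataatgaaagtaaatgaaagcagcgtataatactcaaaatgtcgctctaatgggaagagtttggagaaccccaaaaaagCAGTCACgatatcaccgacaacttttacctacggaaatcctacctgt
rps1701, chrII:604406-604555, strand -: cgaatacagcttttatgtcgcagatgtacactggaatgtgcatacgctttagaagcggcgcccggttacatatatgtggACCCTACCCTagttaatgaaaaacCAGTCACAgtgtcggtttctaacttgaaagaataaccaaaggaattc
rpl4301, chrII:259991-260140, strand -: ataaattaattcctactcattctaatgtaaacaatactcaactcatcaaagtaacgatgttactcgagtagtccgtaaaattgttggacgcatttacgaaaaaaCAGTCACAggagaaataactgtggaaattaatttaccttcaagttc
rpl3202, chrI:3416057-3416206, strand -: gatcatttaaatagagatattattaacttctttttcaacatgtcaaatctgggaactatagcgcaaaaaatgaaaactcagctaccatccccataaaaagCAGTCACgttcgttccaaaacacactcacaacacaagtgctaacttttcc
rpl3602, chrII:3153338-3153487, strand +: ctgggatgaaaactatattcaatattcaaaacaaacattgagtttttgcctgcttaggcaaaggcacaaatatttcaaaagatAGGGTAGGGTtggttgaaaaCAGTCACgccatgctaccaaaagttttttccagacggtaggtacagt
rps2601, chrI:236028-236177, strand -: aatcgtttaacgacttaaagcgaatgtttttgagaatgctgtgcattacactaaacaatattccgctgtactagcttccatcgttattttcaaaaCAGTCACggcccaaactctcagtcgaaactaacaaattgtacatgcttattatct
HomolD was searched for as CAGTCACA and HomolE as the 10 bases in capitals farther from the start in rps1701, each on both strands, from 250 bases before to 50 bases after the annotated start. HomolD was present at 58 of the 90 ribosomal protein genes (64.4%), against 56 of 4252 other protein-coding genes (1.32%). Its 7-base core CAGTCAC, which was added to the search after the data had been seen and is contained in HomolD, was present at 83 of the 90 (92.2%), against 2.87% of the other genes. HomolE was present at 27 of the 90 (30%), against 0.729% of the other genes. Among the promoters printed above, rps1701 and rpl4301 carry the full HomolD, the other 4 carry the core alone, and rps1701 and rpl3602 carry HomolE, in rpl3602 on the opposite strand. Genes with HomolD had a median RPA signal of 0.19 in rad3∆ and 0.19 in WT, and genes without it 0.17 in rad3∆ and 0.17 in WT. A matched motif describes the sequence and says nothing about whether a factor was bound there.

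RPA signal is given throughout as log2(IP/input), relative to the median nuclear probe of each array, so that 0 is the array median and not an absence of RPA. The median background-subtracted IP intensity ranged from 41.5 to 1145 across the arrays, and 79.6% to 99.5% of probes stood well above background in the IP channel, with the lowest share on rad3∆ replicate 2. All probes of 49 of the 90 genes stood well above background on all 6 arrays. Over the deleted rad3 gene the input signal averaged -4.32 ± 0.982 in rad3∆ and -0.308 ± 0.0653 in WT (SD, n = 3 each). The exact two-sided permutation p was 0.1, the smallest that 3 arrays against 3 allow. No array overlapped with the other strain there, so the arrays match their strain labels.

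RPA signal over ribosomal protein gene bodies lay above that of most genes in both strains. In rad3∆ 28 of the 90 genes were enriched (31.1%, against 18.2% of all 8192 genes) and 7 were depleted (7.78%, against 20.5% of all genes). In WT 24 were enriched (26.7%, against 17.7% of all genes) and 5 were depleted (5.56%, against 21.1%). Enriched here means a limma adjusted p under 0.05 and a fitted value of at least 0.5, which is 1.41-fold, and depleted the same at or below -0.5. The median fitted value over the 90 genes was 0.19 in rad3∆ and 0.18 in WT, while over all genes it was 0.0043 in rad3∆ and -0.0031 in WT. Fitted values of the 90 genes ran from -1.17 to 1.06 in rad3∆ and from -1.34 to 1.21 in WT, so the genes did not form a uniform group. With all 94 genes, 30 were enriched and 7 depleted in rad3∆, and 25 enriched and 5 depleted in WT. The enrichment was also not a property of each gene, since 64 of the 90 fitted values were above 0 in rad3∆ and 67 in WT.

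The split of calls depended on where 0 was placed. When each array was centred on its most frequent value instead of its median, 20 genes were enriched and 9 depleted in rad3∆ and 21 were enriched and 8 depleted in WT. Enriched genes were then 69% of the calls in rad3∆ and 72.4% in WT, against 80% in rad3∆ and 82.8% in WT with the median. Of all genes 12.6% were then enriched and 26% depleted in rad3∆, and 11.9% enriched and 27.1% depleted in WT, so that enriched genes were 32.6% of the calls in rad3∆ and 30.6% in WT. That centring moved the median of all genes to -0.1 in rad3∆ and -0.12 in WT and the median of the ribosomal protein genes to 0.0862 in rad3∆ and 0.0632 in WT.

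Most genes enriched in one strain were enriched in the other, as was the case for all genes. Of the 90 genes, 23 were enriched in both strains, which is 82.1% of those enriched in rad3∆ and 95.8% of those enriched in WT, and 5 were depleted in both. Of all genes enriched in rad3∆ 78.7% were enriched in WT too, and of those enriched in WT 80.8% were enriched in rad3∆ too. The signal was above 0 on all 6 arrays at 40 genes and below 0 on all 6 at 9 genes. Across the 90 genes the means of the strains correlated with a Pearson r of 0.919, a description across genes that share arrays of the same slides and neighbouring sequence.

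**Figure D1:**
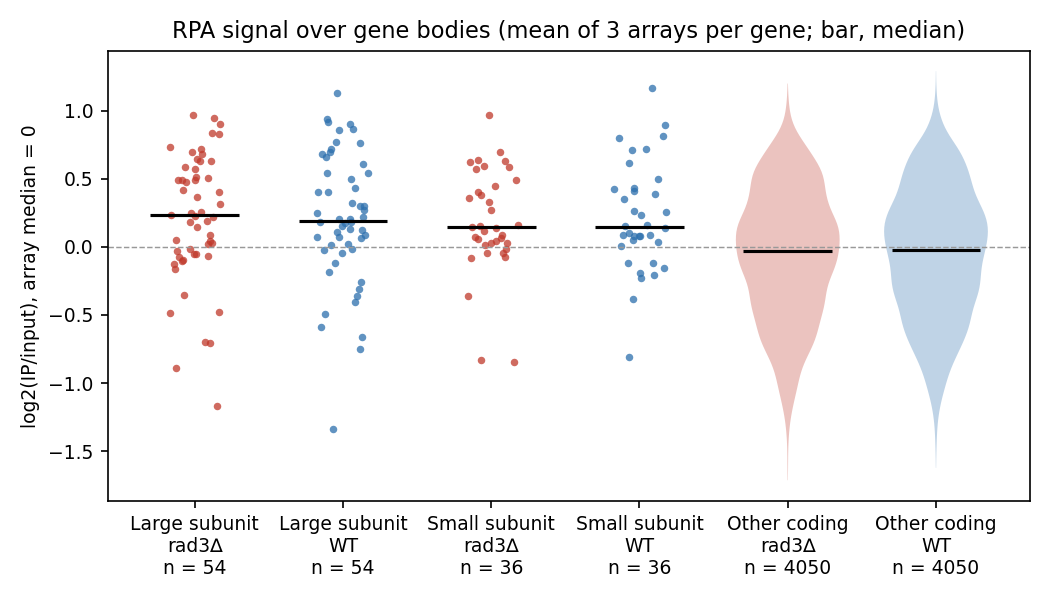
RPA signal over gene bodies, as log2(IP/input) with the array median at 0 (y axis), for the 54 large-subunit and 36 small-subunit genes (points, mean of 3 arrays per gene) and for 4050 other protein-coding genes (violins), rad3∆ in red and WT in blue; black bars are medians. In both strains the ribosomal protein genes spread from below -0.8 to about 1, with medians above those of the other genes.

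The highest signal over a gene body was at rpl3802, for the large-subunit protein eL38 (chromosome I, positions 1096764 to 1097279, 2 probes). It was 0.93, 0.69 and 1.28 on the rad3∆ arrays and 0.69, 1.17 and 1.52 on the WT arrays. The strains overlapped, and both were enriched, with limma fits of 1.06 ± 0.12 in rad3∆ (SE, adjusted p = 0.00016) and 1.21 ± 0.12 in WT (SE, adjusted p = 0.000143). Next came rps1701, for the small-subunit protein eS17 (chromosome II, 603508 to 604405, 2 probes), with 0.89, 0.91 and 1.11 on the rad3∆ arrays and 1.04, 1.13 and 1.32 on the WT arrays. The ranges touched only at the highest rad3∆ array, and the strain difference of -0.20 ± 0.12 (SE) did not pass the test (limma adjusted p = 0.72). At rpl4301, for eL43 of the large subunit, the signal was 0.68, 0.997 and 1.16 in rad3∆ and 0.74, 0.64 and 1.20 in WT. At rpl3202, for eL32 of the large subunit, it was 0.72, 0.93 and 1.04 in rad3∆ and 0.75, 0.86 and 1.15 in WT. Both genes were high on all 6 arrays, and the strains overlapped fully.

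The fifth was rpp0, which encodes the protein uL10 at the base of the ribosomal stalk, the flexible arm that recruits translation GTPases. Its signal, measured by 5 probes, was 0.62, 0.92 and 0.97 in rad3∆ and 0.62, 0.84 and 1.25 in WT. The large-subunit gene rpl3702, for eL37, had 0.31, 0.79 and 1.09 in rad3∆ and 0.49, 0.74 and 1.38 in WT, the widest spread between arrays among the 8 highest genes. Signal at rpl2702, for eL27 of the large subunit, was 0.68, 0.78 and 1.02 in rad3∆ and 0.61, 0.68 and 1.002 in WT. At rps1602, for uS9, a small-subunit protein whose tail reaches towards the P site, it was 0.50, 0.61 and 0.98 in rad3∆ and 0.39, 0.77 and 1.23 in WT. All 8 genes were enriched in both strains, with limma adjusted p from 0.000108 to 0.000384 in rad3∆ and from 0.000132 to 0.000228 in WT. At none did the ranges of the strains separate. Between same-numbered arrays, which shared a slide, WT was higher each time at rps1701 and rad3∆ each time at rpl2702.

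At the other end stood rpl3602, for the large-subunit protein eL36 (chromosome II, 3153488 to 3154041, 2 probes). Its signal was -1.30, -1.04 and -1.15 on the rad3∆ arrays and -1.21, -1.45 and -1.35 on the WT arrays, below 0 on every array, with overlapping strains. The small-subunit gene rps2601, for eS26 near the mRNA exit channel, had -0.34, -0.59 and -1.55 in rad3∆ and -0.47, -0.78 and -1.18 in WT. The large-subunit gene rpl1101, for uL5, which contacts the 5S RNA, had -0.89, -0.42 and -1.36 in rad3∆ and -0.80, -0.09 and -1.10 in WT. Both were lowest on replicate 3 of each strain, the array with swapped dyes. The stalk gene rpp101, for an acidic P1 protein, had -0.64, -0.15 and -1.31 in rad3∆ and -0.94, -0.29 and -1.04 in WT. These 4 genes were depleted in both strains, with limma adjusted p of at most 0.00175 in rad3∆ and 0.00176 in WT; without rad3∆ replicate 3, rpp101 lost its call in rad3∆ (limma adjusted p = 0.0843).

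The large-subunit gene rpl35A02, for eL33, was depleted in rad3∆ and just missed the size limit in WT. Its signal was -0.39, -0.98 and -0.75 in rad3∆ and -0.45, -0.53 and -0.50 in WT. The strain ranges overlapped.

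**Figure D2:**
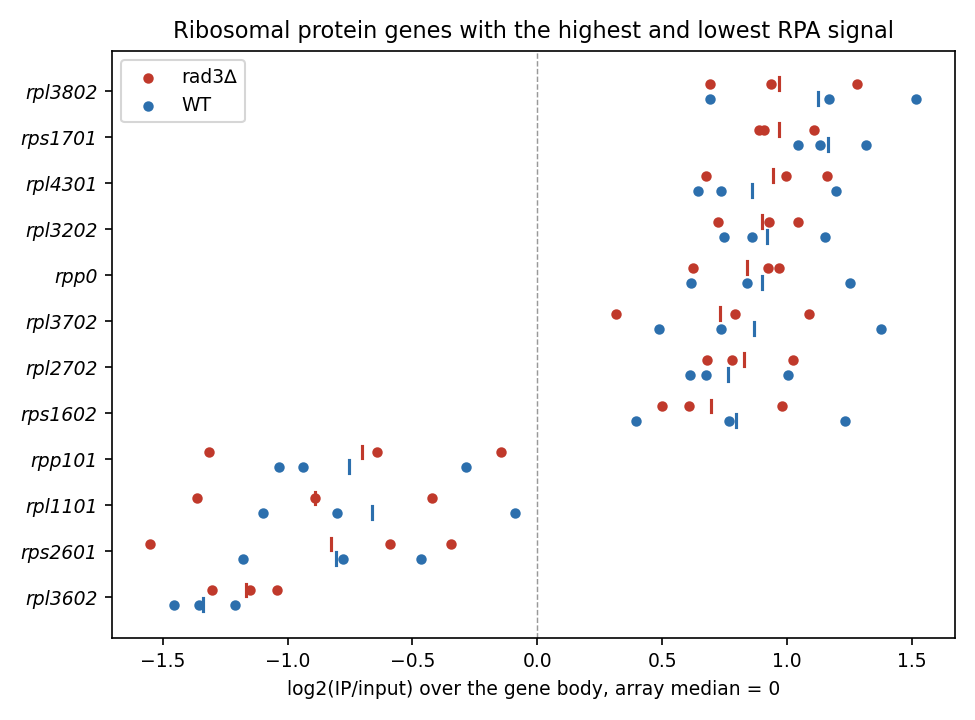
RPA signal over the gene body on each array, as log2(IP/input) with the array median at 0 (x axis), for the 8 highest and 4 lowest ribosomal protein genes; red points are the 3 rad3∆ arrays, blue points the 3 WT arrays and vertical ticks the means. The red and blue points of a gene share the same side of 0 in every case, from rpl3802 with 0.93, 0.69 and 1.28 in rad3∆ down to rpl3602 with -1.30, -1.04 and -1.15 in rad3∆.

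The series set the strains against each other, and loss of rad3 went with no called change of RPA signal at these genes. Of the 90 genes, 0 were higher and 0 lower in rad3∆ than in WT at a limma adjusted p under 0.05, as were 0 of all 8192 genes (0%). Before adjustment, 2 of the 90 passed 0.05 as higher and 2 as lower, and so did 468 of all genes as higher and 199 as lower. The lowest adjusted p among the 90 genes was 0.406, and the median difference was -0.022 over the 90 genes and -0.02 over all genes. A difference that misses the threshold does not show that the strains are alike.

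The most positive difference was at rpl901, for uL6 of the large subunit, with 0.45, 0.41 and 0.64 on the rad3∆ arrays and 0.10, 0.00 and 0.12 on the WT arrays. The strains did not overlap there, and the fitted difference was 0.43 ± 0.12 (SE, limma adjusted p = 0.406). At rpp103, for a P1 stalk protein, the signal was 0.37, 0.48 and 0.62 in rad3∆ and 0.12, 0.22 and 0.19 in WT, again without overlap (difference 0.31 ± 0.12, SE, limma adjusted p = 0.56). At rpl3201, the second gene for eL32, the signal averaged -0.03 ± 0.25 in rad3∆ and -0.36 ± 0.14 in WT (SD, n = 3 each). At rps1801, for uS13 of the small-subunit head, it averaged 0.59 ± 0.32 in rad3∆ and 0.26 ± 0.30 in WT (SD, n = 3 each). Arrays of the strains overlapped at both of these genes.

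Among the genes with a negative difference, none of those named here passed the test. At rps27, for eS27 of the small subunit, the signal was 0.21, 0.62 and 0.51 in rad3∆ and 0.88, 0.51 and 1.05 in WT. At rpl2301, for uL14 at the interface of the subunits, it was 0.20, -0.66 and 0.23 in rad3∆ and 1.15, -0.55 and 0.31 in WT, the widest spread between WT arrays among the genes named here. At rps901, for uS4 near the mRNA entry, it was 0.37, 0.51 and 0.82 in rad3∆ and 1.47, 0.41 and 0.80 in WT, where 1 WT array set the higher mean. The strains overlapped at each of these genes.

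The signal did not end at the gene borders. In the 1 kb upstream, 26 of the 90 genes were enriched in rad3∆ (21.1% of all genes with this flank were) and 9 depleted (20.4%), and in WT 23 were enriched (20.1%) and 12 depleted (21.2%). In the 1 kb downstream, 21 of 89 genes were enriched in rad3∆ (21.5% of all genes with this flank were) and 10 depleted (19.9%), and in WT 23 were enriched (20.3%) and 9 depleted (20.9%). The enriched share downstream was thus close to that of all genes in rad3∆, and the depleted share was below that of all genes in both strains. Median fitted values upstream were 0.23 in rad3∆ and 0.19 in WT, and downstream 0.23 in rad3∆ and 0.20 in WT. Averaged over arrays, the medians in rad3∆ were 0.204 ± 0.0365 for bodies, 0.184 ± 0.0483 upstream and 0.187 ± 0.0278 downstream, and in WT 0.186 ± 0.0435 for bodies, 0.181 ± 0.0759 upstream and 0.221 ± 0.0146 downstream (SD, n = 3). The medians of bodies and flanks were thus close in both strains, but the SD between arrays does not measure differences within an array. On the rad3∆ arrays the body medians of 0.185, 0.18 and 0.246 were each above the upstream ones of 0.182, 0.137 and 0.233. On the WT arrays the downstream medians of 0.227, 0.205 and 0.232 were each above the body ones of 0.224, 0.138 and 0.195. The other pairs of medians had mixed signs. In the upstream and downstream flanks 0 of these genes differed between rad3∆ and WT (0% of all genes).

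The largest body signals stood within raised stretches of chromosome. The flanks of rpl3802 averaged 0.67 ± 0.30 upstream and 1.30 ± 0.16 downstream in rad3∆, and 0.82 ± 0.29 upstream and 1.43 ± 0.42 downstream in WT (SD, n = 3 each). The flanks of rps1701 averaged 0.83 ± 0.20 upstream and 0.999 ± 0.23 downstream in rad3∆, and 1.05 ± 0.14 upstream and 1.12 ± 0.22 downstream in WT. The depleted gene rpl1101 lay in a low stretch, with flanks of -1.19 ± 0.32 upstream and -1.16 ± 0.41 downstream in rad3∆, and -1.26 ± 0.40 upstream and -0.81 ± 0.43 downstream in WT. Over 89 genes with both flanks, body and mean flank signal correlated with a Pearson r of 0.859 in rad3∆ and 0.846 in WT, as a description across genes whose body and flanks were read on the same arrays.

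**Figure D3:**
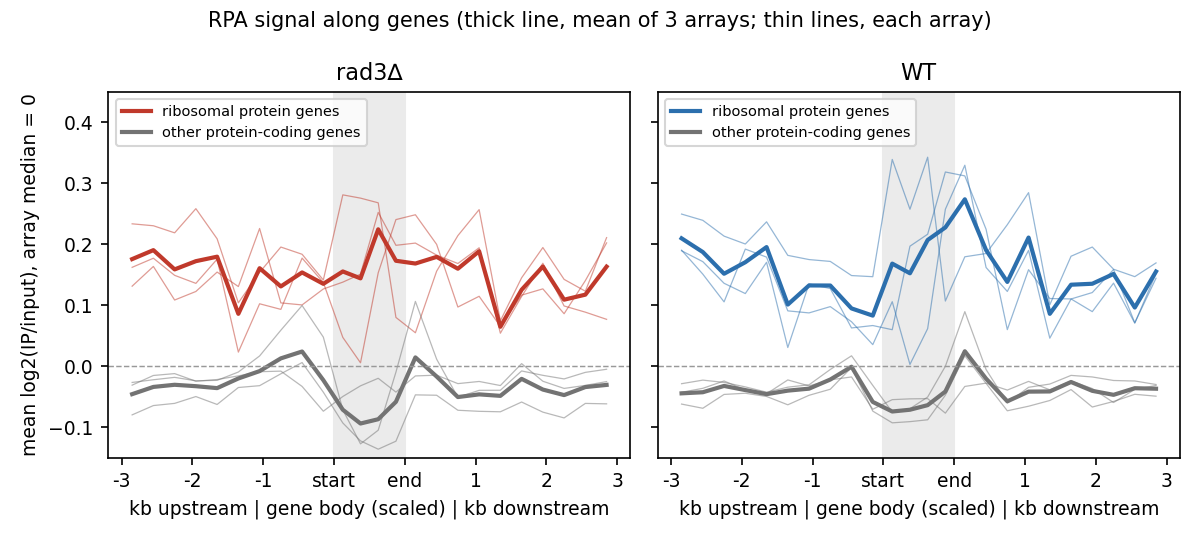
Mean log2(IP/input), array median at 0 (y axis), of probes around the 90 ribosomal protein genes (colour) and other protein-coding genes (grey) from 3 kb upstream to 3 kb downstream, with the gene body scaled to one length (grey band); rad3∆ on the left, WT on the right, thick lines the mean of 3 arrays and thin lines each array. The coloured lines stay above 0 across the whole window in both strains, and body and flanks lie at similar heights.

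Rings of increasing distance on either side of the gene showed how far this extended. In rad3∆ the median over the 90 genes was 0.197 ± 0.0485 at 0 to 1 kb, 0.208 ± 0.0717 at 5 to 10 kb, 0.142 ± 0.0189 at 10 to 20 kb and 0.00394 ± 0.027 at 20 to 50 kb (mean ± SD of 3 array medians). In WT it was 0.2 ± 0.0502 at 0 to 1 kb, 0.224 ± 0.0722 at 5 to 10 kb, 0.181 ± 0.0291 at 10 to 20 kb and 0.0443 ± 0.00425 at 20 to 50 kb. Around other protein-coding genes the same medians stayed between -0.0194 and 0.0144 in rad3∆ and between -0.0222 and -0.000908 in WT. The raised level thus reached well past the gene, whose median length was 742 bp, and was near that of other genes at 20 to 50 kb. The body signal of a gene correlated with its 0 to 1 kb ring at an r of 0.856 in rad3∆ and 0.845 in WT, and with its 20 to 50 kb ring at 0.195 in rad3∆ and 0.325 in WT. Rings of neighbouring genes overlap, and 7 pairs of the 90 genes lay within 5 kb of each other, among them rps1602 with rpl13 at 102 bp and rpl501 with rpl3202 at 3526 bp.

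**Figure D4:**
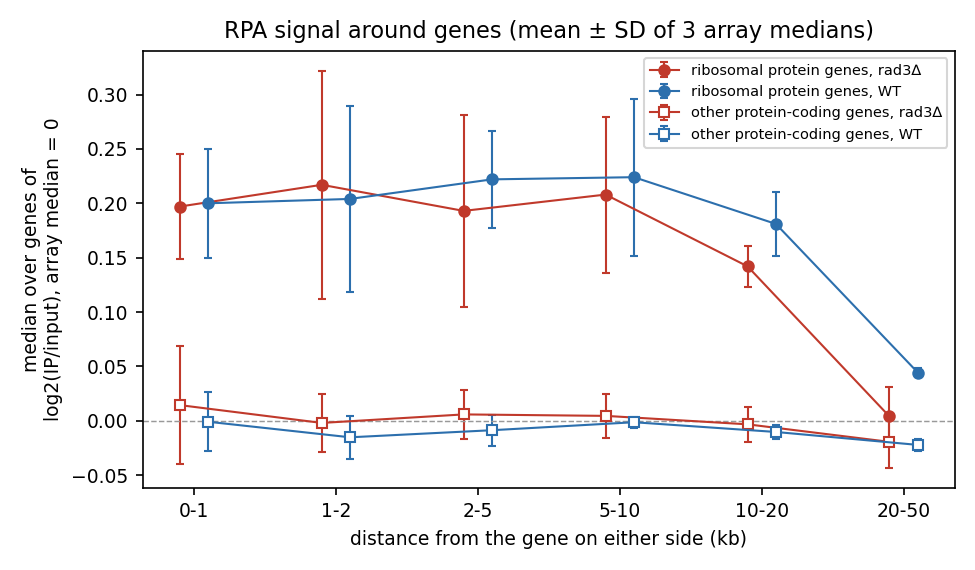
Median over genes of log2(IP/input), array median at 0 (y axis), in rings of increasing distance from the gene in kb (x axis), for 90 ribosomal protein genes (filled circles) and other protein-coding genes (open squares), rad3∆ in red and WT in blue; points are means and bars the SD of 3 array medians. The circles stay near 0.2 up to 10 kb and come down to 0.00394 in rad3∆ and 0.0443 in WT at 20 to 50 kb, while the squares stay near 0 throughout.

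Signal of the gene body itself was therefore measured as the body minus the mean of both flanks, in which array-wide shifts and regional level cancel. In rad3∆ 3 of 89 genes were higher in the body (3.37%, against 0.793% of all genes) and 1 was lower (1.12%, against 1%). In WT 2 were higher (2.25%, against 0.93%) and 0 were lower (0%, against 1.29%, with 6 of the 89 lower at an unadjusted p under 0.05). With the replicate number as a block, 4 genes were higher and 1 lower in WT. The median was 0.025 in rad3∆ and 0.046 in WT for the 89 genes, and -0.031 in rad3∆ and -0.017 in WT for all genes. The members' median was 0.00245 in rad3∆ and 0.0419 in WT with the replicate block. With flanks of 2 kb it was 0.0146 in rad3∆ and 0.0564 in WT. With flanks of 0.5 kb it was 0.0288 in rad3∆ and -0.00692 in WT, over 44 genes. With probes well above background it was -0.0236 in rad3∆ and 0.0493 in WT, over 60 genes. With intergenic flank probes only it was -0.0667 in rad3∆ and -0.0541 in WT, over 13 genes. Where fewer genes were tested, probes and gene set changed together, so the part of each in the turned signs cannot be told apart. None of the 89 differed between rad3∆ and WT by limma (0% of all genes), and 2 were lower in rad3∆ at an unadjusted p under 0.05. These few calls were fragile. Replicate 3 is the only array of each strain with IP in red. Without it the dye effect is read from the other strain's arrays alone, so the fit is less precise. Without replicate 1, 2 or 3 of rad3∆, or without WT replicate 3, 0 genes were called in rad3∆, and without rad3∆ replicate 3 or WT replicate 3, 0 genes were called higher in WT; without WT replicate 2 it was 1, and without rad3∆ replicate 1 or WT replicate 1, 1 gene was called lower in WT.

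The highest body over flanks was at rpl2101, for eL21 of the large subunit, with differences of 0.79, 0.97 and 0.45 on the rad3∆ arrays and 0.39, 0.42 and 0.94 on the WT arrays. The body itself averaged 0.18 ± 0.41 in rad3∆ and -0.05 ± 0.07 in WT (SD, n = 3 each), and the flanks were low, with 1 kb upstream at -0.42 ± 0.14 in rad3∆ and -0.43 ± 0.34 in WT. It was called in rad3∆ (limma adjusted p = 0.032) and missed in WT (limma adjusted p = 0.0534), where it passed with the replicate block. At rps901, for uS4, the difference was 0.24, 0.28 and 0.69 in rad3∆ and 1.34, 0.41 and 0.74 in WT, and only the WT value passed (limma adjusted p = 0.0291). At rpl1701, for uL22, which lines the exit tunnel, it was 0.49, 0.99 and 0.57 in rad3∆ (limma adjusted p = 0.0349) and 0.18, 0.47 and 0.79 in WT (limma adjusted p = 0.0764). The ranges of the strains overlapped at all of these genes, although at rps901 WT was higher than rad3∆ in each pair of same-numbered arrays.

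At rps2, for uS5 of the mRNA entry, the body minus flanks was 0.21, 0.34 and 0.76 in rad3∆ and 0.66, 0.36 and 0.58 in WT, and it passed in WT (limma adjusted p = 0.0319). At rps1202, for eS12 of the small subunit, it was 0.40, 0.49 and 0.72 in rad3∆, where it passed (limma adjusted p = 0.034), and 0.21, 0.39 and 0.29 in WT. All 5 of these genes had values above 0 on every array. The strains separated at rps1202 alone, and its strain difference had a limma adjusted p of 1.

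On the low side, no gene named here was called in either strain. At rps602, for eS6, a small-subunit protein phosphorylated in response to TOR signalling, body minus flanks was -0.97, -0.23 and -0.38 in rad3∆ and -0.47, -0.91 and -0.47 in WT. It missed the threshold in rad3∆ (limma adjusted p = 0.0989) and in WT (limma adjusted p = 0.0624), where it passed with the replicate block. Also low were rpl301, for uL3 near the peptidyl transferase centre, at -0.29 ± 0.21 in rad3∆ and -0.39 ± 0.20 in WT, rpl3602 at -0.30 ± 0.47 in rad3∆ and -0.41 ± 0.14 in WT, and rps902 at -0.22 ± 0.38 in rad3∆ and -0.41 ± 0.25 in WT (SD, n = 3 each), of which none passed.

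Upstream and downstream flanks differed at few of the genes. The upstream flank was higher at 3 of 89 genes in rad3∆ (6.97% of all genes were) and lower at 5 (6.99%), and in WT it was higher at 0 (4.86%, with 6 of the 89 higher at an unadjusted p under 0.05) and lower at 7 (5.34%). The strain difference passed at 0 genes (0% of all genes). At rpl3001, for eL30 of the large subunit, upstream minus downstream was 0.98, 0.67 and 1.08 in rad3∆ and 0.36, 0.15 and 0.45 in WT. The strains did not overlap, but the difference of 0.59 ± 0.20 (SE) had a limma adjusted p of 0.918. At rpl1802, for eL18 of the large subunit, the mean was 0.53 ± 0.27 in rad3∆ and 0.21 ± 0.48 in WT, and at rpl702, for uL30 of the large subunit, 0.59 ± 0.22 in rad3∆ and 0.22 ± 0.39 in WT (SD, n = 3 each).

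The upstream flank was lower in both strains at 5 genes, rpl901, rps602, rps1201, rpl3802 and rpl4301, and in WT also at rpl2301 and rpl1603. At rpl901 upstream minus downstream was -0.65, -0.70 and -0.86 in rad3∆ and -0.19, -0.58 and -0.81 in WT. At rps602 it was -0.56, -0.41 and -0.86 in rad3∆ and -0.30, -0.78 and -0.64 in WT, and at rps1201, for eS12, -0.39, -0.97 and -0.57 in rad3∆ and -0.60, -0.88 and -0.46 in WT. All values of these genes were below 0. After correction for G+C content rps602 lost both calls, with -0.12 in rad3∆ (limma adjusted p = 0.624) and -0.25 in WT (limma adjusted p = 0.275). With flanks of 2 kb rpl901 lost both calls, with -0.43 in rad3∆ and -0.24 in WT. With flanks of 0.5 kb rps1201 lost both, with -0.48 in rad3∆ and -0.38 in WT. Leaving out rad3∆ replicate 3 removed all calls in both strains, as leaving out WT replicate 2 or WT replicate 3 did in WT. Without rad3∆ replicate 1 or WT replicate 3, rad3∆ kept 1 higher and 2 lower. Since the fit is less precise without a replicate 3, calls lost there do not by themselves show a smaller value.

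Large and small subunit genes were close to each other. In rad3∆ the median over the large-subunit genes averaged 0.252 ± 0.0669 across arrays and that over the small-subunit genes 0.173 ± 0.0645, a difference of 0.0791 ± 0.109 (SD, n = 3). The large-subunit median was higher on 2 of 3 rad3∆ arrays, and most of the difference came from rad3∆ replicate 2, without which it was 0.0178. It was 0.0269 with the coding part only, 0.149 with probes well above background and -0.0295 among genes with 3 or more probes. In WT the medians averaged 0.174 ± 0.0406 for the large and 0.203 ± 0.0208 for the small subunit, a difference of -0.0291 ± 0.0266, with the small-subunit median higher on all 3 arrays. This sign turned with normexp (0.0146) and with probes well above background (0.0604). In rad3∆ 19 of 54 large-subunit genes were enriched and 5 depleted, and 9 of 36 small-subunit genes were enriched and 2 depleted. In WT the counts were 16 and 4 for the large and 8 and 1 for the small subunit. Of all genes 18.2% were enriched and 20.5% depleted in rad3∆, and 17.7% enriched and 21.1% depleted in WT. The 5 stalk genes included rpp0, rpp201 and rpp103 on the high side and rpp101 on the low side, with rpp201, for a P2 protein, at 0.63 ± 0.39 in rad3∆ and 0.94 ± 0.02 in WT (SD, n = 3 each).

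Gene copies that carry the symbol of the same protein did not share one level. By symbol, 29 proteins had at least 2 measured gene copies, 60 genes in all, and the median range within these groups was 0.58 on the mean fitted value of the strains. Over the 89 genes with both flanks, the SD of the body signal between genes was 0.438 in rad3∆ and 0.451 in WT. Whether copies differ more or less than unrelated members was not tested. The coding sequences of measured copies were 72% to 94.2% identical, with a median of 86.2%. Copies of rpl36 spanned the widest range. At rpl3601 (chromosome III, 506350 to 506889) the signal was 0.57, 0.70 and 0.89 in rad3∆ and 0.42, 0.75 and 1.12 in WT, whereas at rpl3602 on chromosome II, given above, every array was at or below -1.04. The coding sequences of these copies were 87.3% identical, and protein sequences were not compared. By symbol, one of the enriched genes and the most depleted of the 90 genes were thus copies for the same ribosomal protein.

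For rps26, rps2602 averaged 0.38 ± 0.41 in rad3∆ and 0.43 ± 0.18 in WT, while rps2601 averaged -0.83 ± 0.64 in rad3∆ and -0.81 ± 0.36 in WT (SD, n = 3 each). For rpl11, rpl1102 averaged 0.40 ± 0.20 in rad3∆ and 0.12 ± 0.36 in WT, while rpl1101 averaged -0.89 ± 0.47 in rad3∆ and -0.66 ± 0.52 in WT. For rpl1, whose protein uL1 forms the mobile arm that releases tRNA, rpl101 had 0.41, 0.36 and 0.93 in rad3∆ and 0.40, 0.55 and 0.67 in WT, while rpl102 had -0.47, -0.47 and -0.50 in rad3∆ and -0.41, -0.43 and -0.93 in WT. In each of these pairs the copies did not overlap within a strain, except rpl11 in WT. The depletion of rpl102 in rad3∆ lay near the limit, with a fit of -0.53, and -0.48 with the replicate block. On the mean of the strains, the narrowest groups were rps12 and rpl15. For rps12, rps1201 averaged -0.08 ± 0.22 in rad3∆ and 0.01 ± 0.25 in WT, and rps1202 averaged 0.09 ± 0.05 in rad3∆ and -0.15 ± 0.23 in WT. For rpl15, the copies rpl1502 and rpl15 averaged -0.02 ± 0.39 and 0.03 ± 0.24 in rad3∆ and 0.25 ± 0.46 and 0.02 ± 0.36 in WT. In both groups the order of the copies turned between the strains, so their differences partly cancelled in that mean. Of the genes, 12 share a run of at least 60 identical bases with another copy, which is the length of the longest probe. Signals of such copies cannot be told apart where a probe lies in the run, and rpl1101 and rpl1102 share 83 bases. The shortest probes had 45 bases, so a shorter run can also hold a whole probe. Examples are rpl2101 with rpl2102 (59 bases), rps1601 with rps1602 (53 bases) and rpl1901 with rpl1902 (50 bases).

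**Figure D5:**
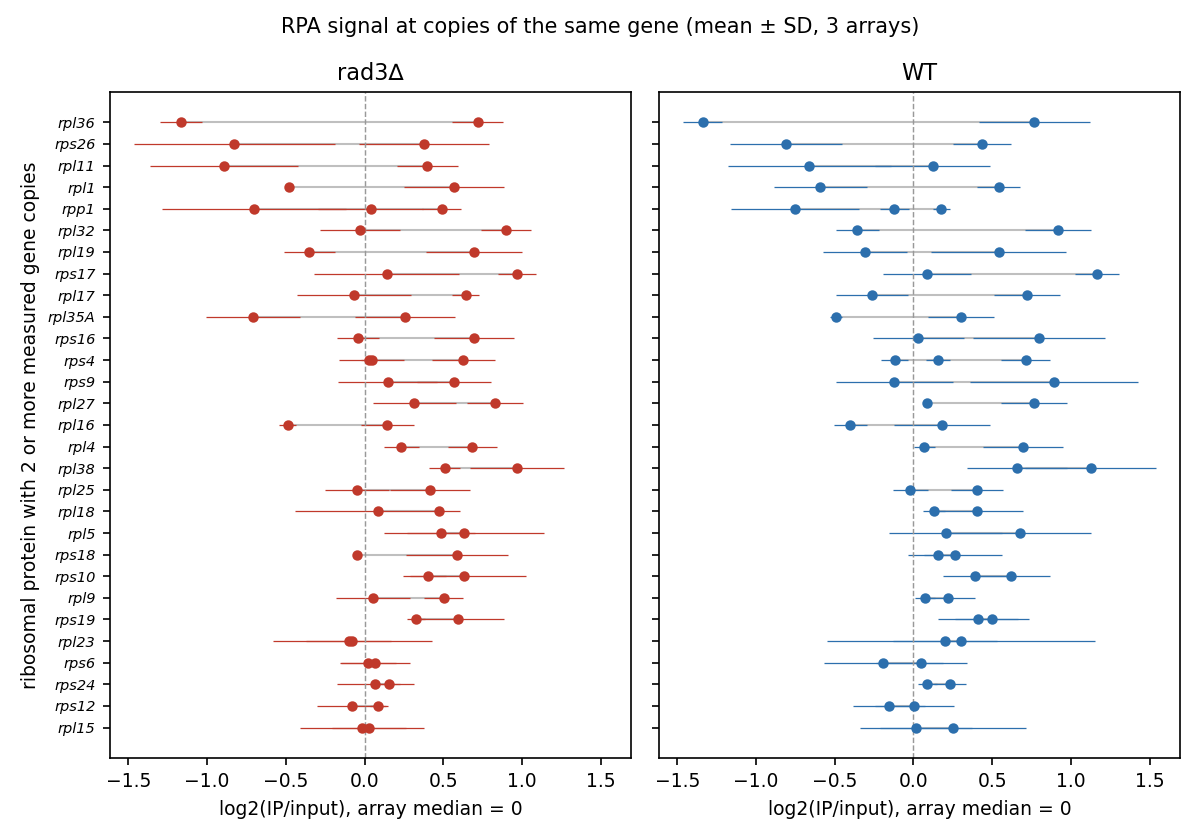
RPA signal over the gene body, as log2(IP/input) with the array median at 0 (x axis), for each copy of the 29 ribosomal proteins with at least 2 measured gene copies, one protein per line; points are means and bars the SD of 3 arrays, joined by a grey line within a protein, rad3∆ on the left and WT on the right. The proteins run from the widest range on the mean of the strains (rpl36, top) to the narrowest (rpl15, bottom). The order of the points is similar in both strains, but it turns at rps12 and rpl15.

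The chromosome mattered for the comparison with other genes. On chromosome I the median over 33 ribosomal protein genes was 0.083 in rad3∆ and 0.12 in WT, with other protein-coding genes there at -0.15 in rad3∆ and -0.16 in WT. On chromosome II the median over 37 genes was 0.25 in rad3∆ and 0.17 in WT, with other protein-coding genes at -0.11 in rad3∆ and -0.14 in WT. On chromosome III, where signal was high in general, the median over 20 genes was 0.16 in rad3∆ and 0.20 in WT, below the 0.24 in rad3∆ and 0.28 in WT of other protein-coding genes. On that chromosome 8 of the 20 were enriched in rad3∆ and 7 in WT, and 0 were depleted. Of other protein-coding genes there 30% were enriched and 3.04% depleted in rad3∆, and 34.1% enriched and 2.46% depleted in WT. By the medians, the higher level of ribosomal protein genes was thus seen on chromosomes I and II and not on chromosome III. By the counts on chromosome III, their enriched share was above that of other protein-coding genes in rad3∆ and near it in WT.

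Base composition, length and nearby A+T-rich islands were compared as descriptions. The genes had a median G+C content of 42.4% and other protein-coding genes 36.7%, and median lengths of 742 bp and 1850 bp. Across the 90 genes the mean level hardly followed G+C content (Pearson r = 0.0727) or length (Pearson r = -0.0945). Islands, here stretches of 500 bp with at least 72% A+T, mark many origins of replication in fission yeast. The 34 genes within 1 kb of an island had a median of 0.27 in rad3∆ and 0.31 in WT, and the 56 farther genes 0.16 in rad3∆ and 0.16 in WT. Other protein-coding genes within 1 kb of an island had a median of 0.035 in rad3∆ and 0.022 in WT, and those farther away -0.12 in rad3∆ and -0.093 in WT. In both distance classes the ribosomal protein genes had the higher median, and the part of islands in their level was not tested.

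Other genes of protein synthesis did not form one pattern. Of 18 measured translation factor genes, 4 were enriched and 2 depleted in rad3∆, and 3 enriched and 3 depleted in WT. They included tef5, for a subunit of elongation factor 1, at 0.86 ± 0.30 in rad3∆ and 0.82 ± 0.25 in WT, and tif301, for a subunit of initiation factor 3, at -0.65 ± 0.21 in rad3∆ and -0.65 ± 0.25 in WT (SD, n = 3 each). Of 41 genes listed by symbol for ribosome biogenesis, 6 were enriched and 12 depleted in rad3∆, and 6 enriched and 10 depleted in WT. Their medians were -0.13 in rad3∆ and -0.098 in WT. Examples are nop58, a core protein of box C/D snoRNPs, enriched at 0.57 ± 0.19 in rad3∆ and 0.51 ± 0.13 in WT, and ebp2, depleted at -0.98 ± 0.31 in rad3∆ and -0.93 ± 0.16 in WT. A further 55 genes had symbols used for proteins of the mitochondrial ribosome, the other ribosome of the cell. Of these 10 were enriched and 14 depleted in rad3∆ and 9 enriched and 13 depleted in WT. Their medians were -0.072 in rad3∆ and -0.0051 in WT. Function was not checked gene by gene, so some genes chosen by symbol may have another role. These lists thus had shares of depleted genes near or above the 20.5% of all genes in rad3∆ and 21.1% in WT, apart from the translation factors. Of all genes 18.2% were enriched in rad3∆ and 17.7% in WT.

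Among 9 genes of RNA polymerase I and its factors, which make the ribosomal RNA, 0 were enriched and 1 depleted in rad3∆ (limma; 2 higher at an unadjusted p under 0.05), and 1 enriched and 1 depleted in WT. Of 9 genes listed by symbol as regulators of ribosomal protein genes, 1 was enriched and 2 depleted in rad3∆, and 2 enriched and 2 depleted in WT. Whether each of them acts on these genes in fission yeast was not checked. The forkhead factor gene fhl1 was enriched at 0.69 ± 0.25 in rad3∆ and 0.70 ± 0.30 in WT, and ifh1, for its partner, was depleted at -0.85 ± 0.43 in rad3∆ and -0.93 ± 0.28 in WT (SD, n = 3 each). Of 10 other strongly transcribed genes, 2 were enriched and 1 depleted in rad3∆, and 4 enriched and 1 depleted in WT, with medians of 0.097 in rad3∆ and 0.30 in WT. In rad3∆ enriched genes were 0% of the polymerase list, 11.1% of the regulators and 20% of the strongly transcribed genes, against 18.2% of all genes. In WT they were 11.1%, 22.2% and 40% of the same lists, against 17.7% of all genes. The strongly transcribed genes included hta1, for a histone H2A, at 0.73 ± 0.10 in rad3∆ and 0.9996 ± 0.28 in WT, and eno102, for an enolase, at -0.86 ± 0.17 in rad3∆ and -0.89 ± 0.21 in WT. Of the genes in these lists 0 differed between the strains at a limma adjusted p under 0.05.

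The input channel was examined by itself, since a shift there alone would alter the ratio. Of the 90 genes 0 differed in input between rad3∆ and WT (limma; 0% of all genes), and before adjustment 0 passed 0.05 as higher in rad3∆ and 3 as lower. The median difference over the 90 genes was -0.076, against -0.0075 over all genes, and 18 of the 90 differences were above 0 (20%, against 44.8% of all genes). The median rested on rad3∆ replicate 2, without which it was -0.00851, and it was -0.116 without rad3∆ replicate 1 and -0.0508 without WT replicate 1. The largest negative differences were at rpl3202, with an input of -2.67, -1.18 and -1.18 in rad3∆ and -1.12, -0.93 and -1.26 in WT, and at rpl13, for eL13 of the large subunit, with -0.67, -0.33 and -0.12 in rad3∆ and 0.23, 0.04 and 0.03 in WT. At rpl3202 a single rad3∆ array carried the difference, while at rpl13 the strains did not overlap (difference -0.48 ± 0.15, SE, limma adjusted p = 1). The largest positive differences were 0.19 ± 0.15 at rpl1901, for eL19, and 0.12 ± 0.09 at rpl3402, for eL34, both of the large subunit (SE, limma adjusted p = 1). Input levels differ between genes also through the probes' own hybridisation, so no gene's input was set against that of another.

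Of the genes annotated as RNase P or RNase MRP subunits, rpl701 was called in neither strain, with 0.02 ± 0.14 in rad3∆ and 0.22 ± 0.24 in WT (SD, n = 3 each). In rad3∆ 2 of the 4 were enriched (18.2% of all genes were) and 0 depleted (20.5%). In WT 1 was enriched (17.7%) and 0 depleted (21.1%). At rpp40, for a subunit of RNase P, the signal was 0.64, 0.19 and 0.74 on the rad3∆ arrays and -0.19, -0.22 and 0.04 on the WT arrays. The strains did not overlap, and the difference of 0.64 did not pass the test (limma adjusted p = 0.271).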

How the data were processed

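Each array was an Agilent 2-colour array of IP and input DNA, in 3 rad3∆ and 3 WT samples. Per the file headers and the submitters' processing notes, the deposited intensity values were background-subtracted and dye-normalised by Feature Extraction 10.7.3.1 (10.7.1.1 for replicate 1 of each strain, per the file headers), and the deposited log10 ratio of red over green came from the same step. IP was green in replicates 1 and 2 and red in replicate 3. Here log2(IP/input) was formed from the processed intensities, turned to one direction and centred on the median nuclear probe. Of 42641 nuclear probes, 211 with outlier flags were left out and 42430 were used. The files' positions were checked in 100 kb segments against ASM294v3: 107 segments matched within 5 bp and were used, and 19 on chromosome I beyond 3700000 were not. Promoter sequences were read from the RefSeq genome of that assembly.

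Probes were averaged per gene or 1 kb flank. limma 3.58.1 in R 4.3.3 was fitted over all genes with at least 2 probes, with a mean per strain and a dye term, and p-values were adjusted over all of them by the Benjamini-Hochberg method. Fitted values weigh the dye orientations equally and so differ from plain means. Same-numbered arrays of the strains shared a slide, per the file headers, and their deviations correlated at 0.272, 0.191 and 0.352, so the replicate number pairs the arrays. Overlap of the strains refers to the ranges of their arrays and not to these pairs. Genes were named by fitted value, with strains averaged: the 8 highest and 6 lowest bodies, the 5 highest and 5 lowest for body minus flanks, 3 and 3 for upstream minus downstream, 4 and 4 for the strain difference, 2 and 2 for the input difference, and the 4 widest and 2 narrowest groups of copies; rpp201, rpp40, rpl1603, the list examples and the flank values of named bodies were chosen after their values were seen. One gene that the rule names is not reported here. The members and gene lists were chosen with earlier results of these data known. Alternatives covered background correction (normexp, on median spot signals, since the files hold no mean signal), loess, centring, G+C correction, probe filters, flank definition, thresholds, the dye term, the replicate block and each array left out. The fit was tested on simulated data. The number of arrays limits the precision.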

Additional observations from a re-analysis of the deposited data

How the results depend on the processing

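The strain differences in body, body minus flanks, upstream minus downstream and input had 0 calls at ribosomal protein genes under each alternative run, and no called value changed sign. The upstream and downstream flanks by themselves were fitted in the main setting only. Medians near 0 did: the strain difference over bodies, -0.022, was 0.0189 without WT replicate 1. For gene bodies, enriched genes in rad3∆ (28) numbered 17 with the coding part only, 13 with 3 or more probes, 3 past a threshold of 1 and 3 among single-copy genes, and depleted genes (7) numbered 3 with 3 or more probes, 2 past 1 and 0 among single-copy genes. In WT, enriched genes (24) numbered 10 with 3 or more probes, 2 past 1 and 3 among single-copy genes, and depleted genes (5) numbered 8 with mode centring, 3 with the coding part only, 2 with 3 or more probes, 11 past 0.3, 1 past 1 and 0 among single-copy genes. Fewer genes were tested with the coding part only (59), 3 or more probes (46) and single copies (10). Leaving out 1 array gave 19 to 30 enriched and 6 to 7 depleted in rad3∆, and 19 to 28 enriched and 4 to 6 depleted in WT. Including the RNase subunits, an alternative chosen after seeing the data, gave 25 enriched in WT.

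For body minus flanks, the 3 higher in rad3∆ became 8 with normexp, 10 with loess and 0 with probes well above background, flanks of 0.5 kb, intergenic flank probes or a threshold of 1, and the 1 lower became 2 with normexp and 0 with the coding part only, flanks of 0.5 kb or a threshold of 1. In WT the 2 higher became 5 with normexp, 9 with loess, 1 with the coding part only, 4 with the replicate block, and 0 with intergenic flank probes or a threshold of 1. The 0 lower in WT became 2 with normexp or G+C correction, and 1 with loess, probes well above background, flanks of 2 kb, intergenic flank probes, the replicate block or no dye term. Leaving out 1 array gave 0 to 3 higher and 0 to 1 lower in rad3∆, and 0 to 3 higher and 0 to 1 lower in WT. Fewer than the 89 genes were tested with probes well above background (60), the coding part only (58), flanks of 0.5 kb (44) and intergenic flank probes (13). Counts under these settings are thus not losses among the same genes.

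For upstream minus downstream, the 3 higher in rad3∆ became 6 with normexp, 5 with loess and 0 with flanks of 0.5 kb, intergenic flank probes or a threshold of 1, and the 5 lower became 8 with normexp, 3 with G+C correction, 1 with flanks of 0.5 kb or intergenic flank probes and 0 past 1. In WT the 0 higher became 2 with loess and 1 with flanks of 2 kb, and the 7 lower became 4 with probes well above background or G+C correction, 2 with flanks of 0.5 kb or of 2 kb, 3 with intergenic flank probes and 0 past 1. Leaving out 1 array gave 0 to 4 higher and 0 to 6 lower in rad3∆, and 0 higher and 0 to 7 lower in WT. Here too fewer genes were tested with probes well above background (60), flanks of 0.5 kb (44) and intergenic flank probes (13). The large minus small subunit median in WT, -0.0291, was 0.0146 with normexp, 0.0604 with probes well above background and -0.0943 among single-copy genes, and -0.0414 to -0.015 with 1 array left out, which in rad3∆ gave 0.0178 to 0.123; the rad3∆ value, 0.0791, was -0.0295 with 3 or more probes. The cause of these changes was not tested, apart from the fewer genes given above. The replicate block changed the calls of rpl2101 and rps602 in WT and rpl102 in rad3∆, given with those genes, and no other call of a named gene. The 90 named values were recomputed in 1353 settings, of which 1190 kept side and direction, 53 newly passed the threshold and 110 no longer passed. Median IP intensity as low as 41.5, on rad3∆ replicate 2, limits what weak probes can show.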
